A study of Mus musculus with 4 samples.

Results

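The genes described here are Eda2r, Gdf15, Tnfrsf10b, Fas and Fasl, 5 of the 32285 genes counted in single cells of mouse lung. They were listed by symbol: 3 receptors and 1 secreted factor that are targets of the transcription factor p53, and the ligand of 1 of these receptors. They were chosen by levels and ratios per cell class seen earlier in these same libraries, so the values below are a description and carry no test.

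Lungs came from male wild-type C57BL/6 mice aged 6 to 7 weeks. There were 4 libraries, 1 per group. In the LPS+RT library, mice received 200 µg of lipopolysaccharide (LPS, a bacterial cell wall component, here from E. coli O55:B5) into the trachea and 1 Gy of X-rays to the thorax (RT) on the next day. LPS mice received the same LPS without X-rays, PBS+RT mice 100 µL of phosphate-buffered saline (PBS) followed by the X-rays, and PBS mice the saline alone. All lungs were taken 48 hours after the injection, which is 24 hours after irradiation. All were passed over a density gradient, a step meant to keep mononuclear cells and remove granulocytes. Neutrophil-like cells still made up 34.7% of the cells of LPS. The number of mice behind each library is not stated. No difference below therefore has a replicate check, each one compares a pair of libraries, and a difference between mice or preparations cannot be told apart from one between treatments. The 4 comparisons share libraries and are not independent of each other.

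After filtering, 9706 cells remained in LPS+RT, 9015 in LPS, 6256 in PBS+RT and 8919 in PBS, and the median cell held 4303.5, 5588, 8590.5 and 4293 UMIs in that order (a UMI, or unique molecular identifier, marks 1 captured RNA molecule). Each level is in CPM (counts of the gene per 1000000 UMIs summed over a cell class in a library), without correction for gene length, so levels are compared between classes and libraries and not between genes. Classes were named from marker genes and carry the ending "-like". In every library with at least 50 cells of a class, each of the fixed markers of that class was detected, except in classical monocyte-like cells of LPS+RT and PBS, where 6 of the 8 markers of a list shared with Nos2 and Arg1 macrophages were. Detection over a whole class is a low bar that RNA of other cells can meet, so it does not test the names. Intervals are exact 95% intervals and cover counting error only. A ratio was called where it reached 1.5-fold in either direction and both libraries together held at least 30 UMIs, in classes with at least 50 cells in each. S100a8, a neutrophil gene, was most visible outside neutrophil-like cells in the LPS library. It stood at 2.01% of its neutrophil-like level in general capillary endothelial-like cells of LPS, 3.30% in alveolar fibroblast-like cells, 8.01% in aerocyte capillary endothelial-like cells and 12.0% in nonclassical monocyte-like cells, and below 1% in each of these classes in the other libraries.

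p53 is stabilised when DNA is broken, as by X-rays, and switches on genes for cell cycle arrest, repair and cell death. Eda2r encodes a receptor of the tumour necrosis factor family that binds the A2 form of ectodysplasin. Tnfrsf10b encodes the mouse receptor for the death ligand TRAIL (gene Tnfsf10), and Fas encodes the receptor for Fas ligand (Fasl), which T cells and natural killer cells use to kill their targets. Receptors with a death domain, such as those of Tnfrsf10b and Fas, recruit the adaptor FADD and caspase 8. Gdf15 encodes a secreted factor of the transforming growth factor beta superfamily that acts on the brainstem receptor GFRAL to lower food intake, and it is also raised by the integrated stress response through ATF4.

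Promoters of 4 of the 5 genes were found in the RefSeq table for GRCm38.p6. Tnfrsf10b had no entry. The sequences are shown because these genes differed in how they stood in irradiated libraries, and because the first promoter of Cdkn1a, whose product p21 halts the cell cycle on p53's command, serves as the comparison. Each runs 5′ to 3′ on the strand of its gene, from 250 bases before the start to 50 bases after it. Capitals mark matches to the p53 half-site RRRCWWGYYY, the TATA box TATAAA, the GC box GGGCGG, the AP-1 site TGANTCA and the ATF4 element TGATGNAA, each searched on both strands. The half-site has 10 bases, with A or G at R, A or T at W and C or T at Y.
Eda2r (chrX:97377160-97377459, minus strand): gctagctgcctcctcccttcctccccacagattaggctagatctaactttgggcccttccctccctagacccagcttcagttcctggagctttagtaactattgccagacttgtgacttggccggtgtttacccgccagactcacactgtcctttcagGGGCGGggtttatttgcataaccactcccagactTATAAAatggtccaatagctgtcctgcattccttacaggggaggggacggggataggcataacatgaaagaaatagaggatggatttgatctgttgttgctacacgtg
Gdf15 (chr8:70632407-70632706, minus strand): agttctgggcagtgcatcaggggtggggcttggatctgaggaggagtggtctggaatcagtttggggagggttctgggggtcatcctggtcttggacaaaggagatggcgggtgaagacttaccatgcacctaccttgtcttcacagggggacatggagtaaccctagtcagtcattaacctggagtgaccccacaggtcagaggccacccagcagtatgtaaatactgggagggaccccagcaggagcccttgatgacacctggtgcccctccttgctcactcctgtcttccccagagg
Fas (chr19:34290409-34290708, plus strand): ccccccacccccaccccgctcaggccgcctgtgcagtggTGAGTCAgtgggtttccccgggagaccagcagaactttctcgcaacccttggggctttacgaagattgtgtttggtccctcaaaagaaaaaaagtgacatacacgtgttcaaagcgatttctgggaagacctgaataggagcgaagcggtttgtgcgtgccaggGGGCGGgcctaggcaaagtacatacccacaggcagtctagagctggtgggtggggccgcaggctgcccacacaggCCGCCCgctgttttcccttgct
Fasl (chr1:161788446-161788745, minus strand): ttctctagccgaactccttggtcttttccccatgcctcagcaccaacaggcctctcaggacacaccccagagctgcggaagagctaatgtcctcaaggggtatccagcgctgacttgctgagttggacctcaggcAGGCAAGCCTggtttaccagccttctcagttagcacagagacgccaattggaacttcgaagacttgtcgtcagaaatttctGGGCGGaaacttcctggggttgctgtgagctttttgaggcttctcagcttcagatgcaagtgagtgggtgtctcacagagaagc
Cdkn1a (chr17:29090729-29091028, plus strand): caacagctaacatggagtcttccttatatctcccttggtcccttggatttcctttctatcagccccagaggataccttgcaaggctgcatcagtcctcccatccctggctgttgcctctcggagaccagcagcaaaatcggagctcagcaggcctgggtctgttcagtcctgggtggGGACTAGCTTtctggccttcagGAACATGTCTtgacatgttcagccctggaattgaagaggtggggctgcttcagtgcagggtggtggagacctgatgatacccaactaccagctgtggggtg

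The first promoter of Cdkn1a held 2 p53 half-sites and the Fasl promoter held 1, at position -115 from the start. The second promoter of Cdkn1a, not shown, held 0. Over all 32851 promoters in the table, 2745 (8.36%) held a match. The windows of Eda2r, Fas and both promoters of Gdf15 held none, which says only that these letters are not in these windows. Eda2r had a TATAAA match at -58, a motif present in 13.6% of all promoters, and a GC box at -92. GC boxes were found in 35.7% of all promoters, with 2 in Fas and 1 in Fasl. The AP-1 letters stood in Fas at -211 and in 7.81% of all promoters. The ATF4 letters, present in 3.97% of all promoters, were in none of these windows. No match overlapped another in the sequences shown.

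**Figure D1:**
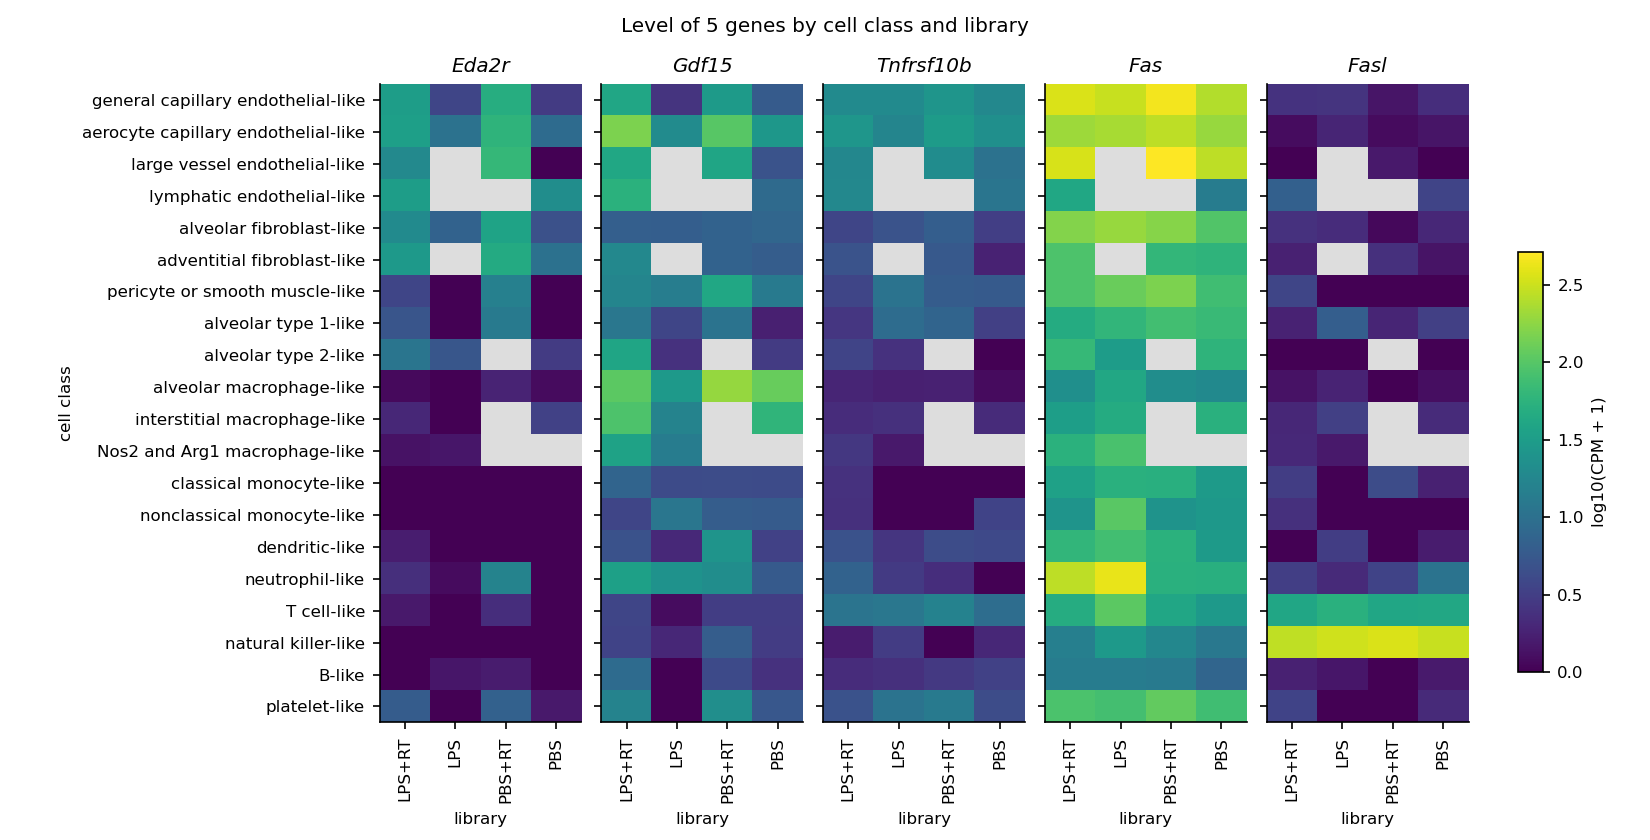
Levels of the 5 genes as log10(CPM + 1), with cell classes down the page and the 4 libraries across each panel. Grey marks fewer than 50 cells. Eda2r is brightest in the irradiated columns of endothelial-like and fibroblast-like rows, Gdf15 is brightest in alveolar macrophage-like and aerocyte capillary endothelial-like cells, and Fasl is bright in natural killer-like and T cell-like cells.

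The plot of levels by cell class shows in which named classes each gene was most visible. Eda2r stood out in vessel lining and connective tissue, Gdf15 in macrophages and vessel lining, and Tnfrsf10b in vessel lining. Fas was found in most classes, and Fasl stood out in natural killer-like and T cell-like cells. In LPS, unnamed clusters held 50.7% of the Gdf15 UMIs and neutrophil-like cells 19.8%. Alveolar macrophage-like cells held 10.2% there and endothelial-like classes 2.76%. Over all cells, endothelial-like classes held 71.1% of the Eda2r UMIs in LPS+RT, 46.3% in LPS, 72.7% in PBS+RT and 53.8% in PBS. For Tnfrsf10b the same shares were 70.8%, 43.1%, 80.1% and 77.6%, and for Fas 56.2%, 14.6%, 77.8% and 67.0%. These shares follow the number of cells of each class in a library as well as the level per cell.

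Irradiation of PBS lungs was addressed by PBS+RT over PBS. Of 34 measured pairs of a gene and a class, 22 were at least 1.5-fold higher in PBS+RT and 0 as much lower, where 18% of all gene and class pairs were higher and 14.3% lower. The 22 pairs were 5 of 5 for Eda2r, 6 of 7 for Gdf15, 3 of 5 for Tnfrsf10b, 8 of 15 for Fas and 0 of 2 for Fasl. Irradiation of LPS lungs was addressed by LPS+RT over LPS, where 12 of 34 pairs were higher and 7 lower, against 9.68% and 13.8% of all pairs. All 3 measured pairs of Eda2r, 6 of 8 of Gdf15, 2 of 4 of Tnfrsf10b and 1 of 17 of Fas were higher, and the 7 lower pairs were all of Fas. The UMI limit applies to both libraries together, so a class with few UMIs in both was left out. Eda2r pairs passed it through the irradiated library, except in aerocyte capillary endothelial-like cells of PBS lungs, where PBS alone held 36 UMIs. The limit thus favoured pairs in which 1 library was high, and the Eda2r counts are not shares of all classes. Since earlier values of these contrasts guided the choice of genes, nothing is read from the counts against the background.

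In PBS lungs Eda2r had the highest ratios of the 5 genes after irradiation. In general capillary endothelial-like cells, which line most lung capillaries and carry Gpihbp1 and Plvap, it stood at 31.0 CPM in LPS+RT, 2.67 CPM in LPS, 48.05 CPM in PBS+RT and 1.97 CPM in PBS, from 285, 12, 702 and 19 UMIs. Both irradiated libraries were high and both unirradiated libraries low. The ratio was 24.4 (15.5 to 40.8) for PBS+RT over PBS and 11.6 (6.56 to 22.8) for LPS+RT over LPS. At least 1 Eda2r UMI was found in 6.33% of these cells in LPS+RT, 0.858% in LPS, 14.7% in PBS+RT and 0.606% in PBS, at median depths of 2248, 2172, 7886.5 and 3093 UMIs. With each cell thinned to 1000 UMIs the shares were 2.55%, 0.328%, 4.18% and 0.155%. As a background, no natural killer-like cell in any library had an Eda2r UMI, with 322, 283, 136 and 175 cells at median depths of 5140.5, 6867, 6967 and 5431 UMIs. Each comparison could be measured inside 3 general capillary clusters, not the same 3, and the ratio was called higher in 3 of 3 each time. Here too a cluster with few Eda2r UMIs in both libraries would be left out.

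Aerocyte capillary endothelial-like cells, the wide capillary cells marked by Car4 and Ednrb, had 32.7 CPM of Eda2r in LPS+RT, 9.38 in LPS, 57.2 in PBS+RT and 7.91 in PBS. The order was the same as in general capillary cells, from a higher unirradiated level. Here PBS+RT over PBS was 7.23 (5.11 to 10.5) and LPS+RT over LPS 3.49 (2.19 to 5.81). Large vessel endothelial-like cells of PBS+RT had 63.0 CPM from 117 UMIs, and those of PBS had 0 UMIs in 198 cells, so that PBS+RT was at least 26.7-fold higher against a floor of 3 counts in the PBS library. In LPS+RT the level there was 17.7 CPM. The LPS library held only 42 cells of this class and was not compared.

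Fibroblast-like cells followed the same split. Alveolar fibroblast-like cells, which support the gas exchange surface, stood at 18.7 CPM of Eda2r in LPS+RT, 6.10 in LPS, 36.8 in PBS+RT and 3.73 in PBS. The 2 irradiated libraries lay above the 2 unirradiated ones with no overlap of their intervals, at ratios of 9.86 (6.36 to 16.0) in PBS lungs and 3.07 (1.89 to 5.23) in LPS lungs. Adventitial fibroblast-like cells, found around airways and vessels, had 27.8 CPM in LPS+RT, 44.7 in PBS+RT and 9.33 in PBS, a ratio of 4.79 (3.02 to 7.92) for PBS+RT over PBS. Lymphatic endothelial-like cells had 16 UMIs of Eda2r in LPS+RT, at 30.9 CPM (17.7 to 50.2), and 8 UMIs in PBS, at 20.5 CPM (8.84 to 40.3), the highest level in PBS of any class with at least 50 cells, with an interval that overlapped the next. The other libraries held fewer than 50 of these cells. Outside endothelial-like and fibroblast-like cells counts were small. Pericyte or smooth muscle-like cells of PBS+RT had 14 UMIs, at 14.2 CPM, and alveolar type 1-like cells 26 UMIs, at 12.0 CPM. Alveolar macrophage-like cells had 0.179, 0, 0.843 and 0.191 CPM in LPS+RT, LPS, PBS+RT and PBS at median depths above those of every endothelial-like class, and no monocyte-like cell had a UMI in any library. In neutrophil-like cells of PBS+RT the 15.3 CPM came from 12 UMIs in 3 cells.

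**Figure D2:**
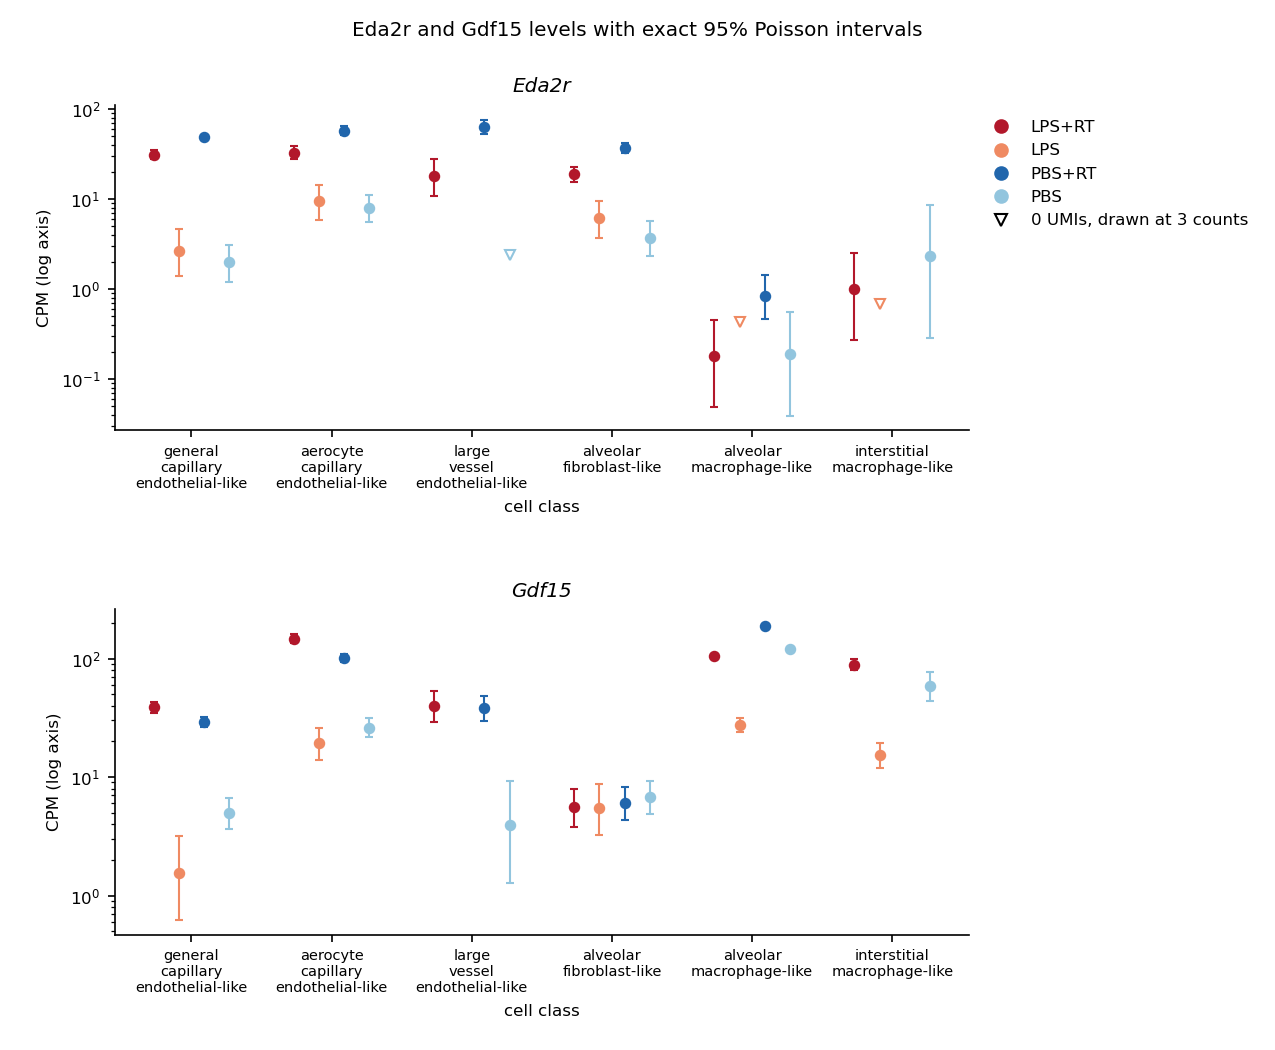
Levels of Eda2r and Gdf15 in CPM on log axes, in 6 cell classes, with exact 95% Poisson intervals as bars and a colour for each library; open triangles mark 0 UMIs drawn at the level of 3 counts, and libraries with fewer than 50 cells of a class are left out. For Eda2r in general capillary endothelial-like cells, LPS+RT (31.0) and PBS+RT (48.05) stand above LPS (2.67) and PBS (1.97), while Gdf15 in alveolar fibroblast-like cells shows 4 overlapping intervals.

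The irradiated libraries were not alike. LPS+RT over PBS+RT had 4 of 41 pairs higher and 13 lower, against 12.2% and 18.7% of all gene and class pairs. All 6 measured pairs of Eda2r were lower in LPS+RT. The ratios were 0.645 (0.560 to 0.742) in general capillary, 0.572 (0.464 to 0.701) in aerocyte capillary and 0.281 (0.166 to 0.454) in large vessel endothelial-like cells. Inside 4 general capillary clusters it was called lower in 1, cluster 8, at 0.395 (0.273 to 0.558), and lay between 0.683 and 1.01 in the other 3. In alveolar and adventitial fibroblast-like cells they were 0.510 (0.401 to 0.645) and 0.622 (0.410 to 0.925), and in alveolar type 1-like cells 0.349 (0.105 to 0.923) from 5 and 26 UMIs. Between the unirradiated libraries, LPS over PBS had 12 of 31 pairs higher and 4 lower, against 16.9% and 15.8% of all pairs. There Eda2r stood at 1.35 (0.5997 to 2.94) in general capillary cells, 1.19 (0.658 to 2.09) in aerocytes and 1.64 (0.848 to 3.15) in alveolar fibroblast-like cells, and all 3 intervals include 1. The ligand gene Eda was low in general capillary cells, at 2.94 CPM in LPS+RT, 4.22 in LPS, 2.87 in PBS+RT and 1.76 in PBS. In alveolar fibroblast-like cells it stood at 93.7 CPM in LPS+RT, 92.2 in LPS, 247 in PBS+RT and 105 in PBS, so that PBS+RT stood apart, at 2.34 (2.13 to 2.57) over PBS. In adventitial fibroblast-like cells Eda had 228 CPM in PBS+RT and 104 in PBS (2.19, 1.88 to 2.56), and in alveolar type 1-like cells 41.5 and 6.75 CPM (6.16, 3.10 to 13.9). LPS+RT over LPS was 1.02 (0.880 to 1.18) for Eda in alveolar fibroblast-like cells.

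Among named classes Gdf15 had its highest level in alveolar macrophage-like cells, which clear particles from the air spaces, in every library but LPS+RT, and in LPS neutrophil-like cells at 23.2 CPM overlapped them. It stood there at 106 CPM in LPS+RT, 27.6 in LPS, 189 in PBS+RT and 119 in PBS. PBS+RT was high and LPS low, and LPS+RT and PBS lay between them. The share of these cells with a UMI was 53.9%, 31.0%, 65.1% and 44.7% in the same order, at median depths of 25802.5, 37299, 23688 and 23642 UMIs. As a background, 1.24%, 0.707%, 3.68% and 1.14% of natural killer-like cells had one, at median depths of 5140.5, 6867, 6967 and 5431 UMIs. The ratio was 1.58 (1.49 to 1.68) for PBS+RT over PBS and 3.83 (3.30 to 4.46) for LPS+RT over LPS. Without X-rays, LPS over PBS was 0.231 (0.198 to 0.268), and LPS+RT over PBS+RT was 0.559 (0.530 to 0.590).

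Different clusters held the alveolar macrophage-like cells of these libraries. Cluster 6 held 231 of them in LPS+RT, 670 in PBS+RT and 563 in PBS, with 146, 185 and 99.2 CPM of Gdf15. Cluster 18 held 513 in LPS+RT, 129 in LPS and 52 in PBS, with 88.7, 22.8 and 219 CPM. In cluster 18 the LPS level was thus the lowest of the 3 and PBS the highest. Interstitial macrophage-like cells, which live in the tissue between air spaces, had 88.7 CPM in LPS+RT, 15.4 in LPS and 58.8 in PBS. LPS was again the lowest library, with ratios of 5.77 (4.44 to 7.60) for LPS+RT over LPS and 0.261 (0.179 to 0.384) for LPS over PBS. The Nos2 and Arg1 macrophage-like cells, found almost only in the LPS-treated lungs, had 35.1 CPM in LPS+RT and 12.8 CPM in LPS, a ratio of 2.74 (2.13 to 3.50).

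In endothelial-like cells Gdf15 was high in both irradiated libraries. General capillary endothelial-like cells had 38.8 CPM in LPS+RT, 1.56 in LPS, 29.0 in PBS+RT and 4.97 in PBS, and the 7 UMIs of LPS make its ratio wide. LPS+RT over LPS was 25.0 (12.0 to 62.6) and PBS+RT over PBS 5.84 (4.32 to 8.04). The unirradiated levels depended on how cells were named. Naming each cell by its own marker score put the log2 ratio of LPS over PBS at 0.95 in place of -1.68. Aerocyte capillary endothelial-like cells were the class with the most Gdf15 in LPS+RT, at 147 CPM, with 19.2 in LPS, 101 in PBS+RT and 26.2 in PBS. The irradiated libraries again stood apart, at ratios of 7.68 (5.63 to 10.7) in LPS lungs and 3.86 (3.16 to 4.75) in PBS lungs. In large vessel endothelial-like cells PBS+RT had 38.3 CPM and PBS 3.94 CPM, a ratio of 9.72 (3.97 to 30.8). LPS+RT over PBS+RT was 1.34 (1.16 to 1.54) in general capillary cells and 1.46 (1.30 to 1.64) in aerocytes, under the 1.5-fold limit, where Eda2r was lower in LPS+RT.

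Alveolar fibroblast-like cells, in which Eda2r was high after X-rays, had 5.58, 5.49, 6.07 and 6.78 CPM of Gdf15 in LPS+RT, LPS, PBS+RT and PBS. No library stood out, and the ratios were 0.896 (0.562 to 1.43) for PBS+RT over PBS and 1.02 (0.551 to 1.93) for LPS+RT over LPS. Inside the 1 cluster that could be measured PBS+RT over PBS was 0.655. Smaller counts gave higher values in dendritic-like cells of PBS+RT, at 24.6 CPM against 2.36 in PBS (10.4, 3.66 to 40.6), and in pericyte or smooth muscle-like cells, at 39.7 against 12.2 CPM (3.26, 1.60 to 7.32). In alveolar type 2-like cells, the surfactant makers, LPS+RT had 29 UMIs and LPS 1 UMI, with an interval of 4.31 to 1062 around a ratio of 26.0. Not all Gdf15 lay in named classes. Unnamed clusters held 11.1% of its UMIs in LPS+RT, 50.7% in LPS, 1.19% in PBS+RT and 1.25% in PBS. One of them, cluster 15, led by Rab15, Enthd1 and Mreg, stood at 328 CPM in LPS+RT from 304 cells and 382 CPM in LPS from 467 cells, above every named class of either library.

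Tnfrsf10b was low throughout and highest in capillary endothelial-like cells. Aerocyte capillary endothelial-like cells had 25.8 CPM in LPS+RT, 16.1 in LPS, 29.5 in PBS+RT and 21.3 in PBS. The spread between libraries was small beside that of Eda2r, with ratios of 1.38 (1.07 to 1.80) for PBS+RT over PBS and 1.61 (1.09 to 2.41) for LPS+RT over LPS. General capillary endothelial-like cells had 18.9, 18.9, 25.0 and 17.3 CPM, so that only PBS+RT stood above the rest. The ratios were 1.44 (1.199 to 1.75) in PBS lungs and 1.00 (0.769 to 1.32) in LPS lungs. Neither capillary class reached 1.5-fold in PBS lungs, and 3 other classes did. In alveolar fibroblast-like cells the ratio was 2.48 (1.28 to 5.10), in large vessel endothelial-like cells 2.11 (1.08 to 4.44) and in T cell-like cells 1.83 (1.05 to 3.23). In T cell-like cells LPS+RT over LPS was 0.909 (0.578 to 1.42). Neutrophil-like cells of LPS+RT had 14 UMIs, at 6.10 CPM, and those of LPS 30 UMIs, at 1.86 CPM, a ratio of 3.27 (1.60 to 6.36). Its ligand gene Tnfsf10 stood in general capillary cells at 218 CPM in LPS+RT, 405 in LPS, 267 in PBS+RT and 270 in PBS, with LPS the highest.

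**Figure D3:**
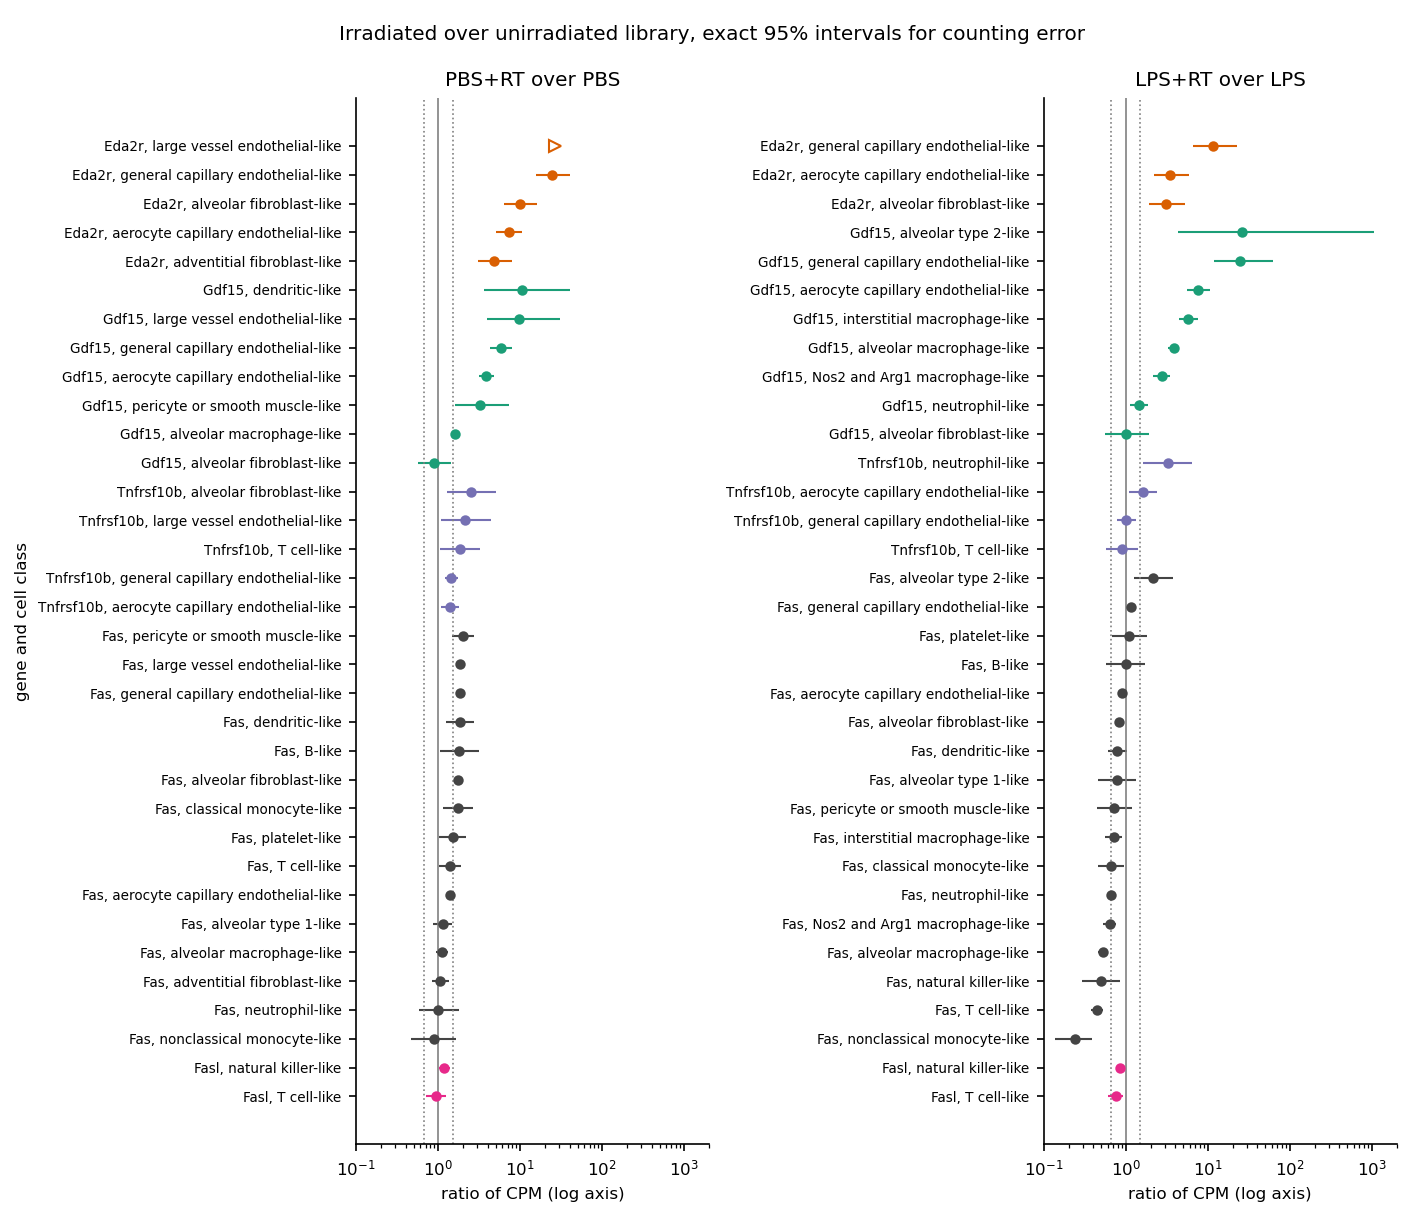
Ratios of CPM in irradiated over unirradiated libraries on log axes, for every measured pair of a gene and a cell class, with exact 95% intervals for counting error. The left panel shows PBS+RT over PBS, the right panel LPS+RT over LPS, dotted lines mark 1.5-fold in either direction, and an open triangle is a lower bound. Eda2r lies right of 1 in all 5 and all 3 of its pairs, while Fas lies mostly right of 1 on the left and mostly left of 1 on the right.

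The plot of irradiation ratios shows that Fas lay mostly above 1 in PBS lungs and mostly below 1 in LPS lungs. Fasl in natural killer-like cells also lay above 1 in PBS lungs and below 1 in LPS lungs. The ratio of Tnfrsf10b in T cell-like cells was above 1 in PBS lungs, but its interval in LPS lungs, 0.578 to 1.42, included 1. Signs of cell quality also differed in opposite directions in LPS and PBS lungs. The median mitochondrial share of kept cells was 3.77% in LPS+RT, 1.98% in LPS, 2.64% in PBS+RT and 3.76% in PBS, and 1079, 433, 363 and 1044 barcodes failed the filter. Their part in the Fas values was not tested. In general capillary endothelial-like cells Fas stood at 356 CPM in LPS+RT, 305 in LPS, 462 in PBS+RT and 248 in PBS. PBS+RT was the highest and PBS the lowest, and the libraries of LPS lungs lay between. PBS+RT over PBS was 1.87 (1.78 to 1.96) and LPS+RT over LPS 1.16 (1.09 to 1.24). Large vessel endothelial-like cells had 353 CPM in LPS+RT, 512 in PBS+RT and 274 in PBS, a ratio of 1.87 (1.65 to 2.12) in PBS lungs. Aerocyte capillary endothelial-like cells had 203, 224, 273 and 195 CPM, with ratios of 1.40 (1.29 to 1.52) in PBS lungs and 0.905 (0.809 to 1.01) in LPS lungs.

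Alveolar fibroblast-like cells had 160 CPM of Fas in LPS+RT, 195 in LPS, 162 in PBS+RT and 93.0 in PBS. PBS was low beside the other 3 libraries. PBS+RT over PBS was 1.74 (1.57 to 1.94), LPS over PBS 2.10 (1.87 to 2.36) and LPS+RT over LPS 0.821 (0.741 to 0.910). The clusters of this class were not alike. In cluster 12 PBS+RT over PBS was 1.65 (1.46 to 1.85) and LPS over PBS 2.28 (2.01 to 2.60), in cluster 3 they were 1.33 (0.948 to 1.86) and 0.934 (0.596 to 1.43), and in cluster 22 they were 0.278 (0.0948 to 0.676) and 0.759 (0.400 to 1.40). S100a8 stood at 458 CPM in these cells of LPS and 126 CPM in LPS+RT, and its part in the Fas values was not tested. Pericyte or smooth muscle-like cells had 88.5, 122, 150 and 74.3 CPM, and PBS+RT over PBS was 2.01 (1.48 to 2.76).

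**Figure D4:**
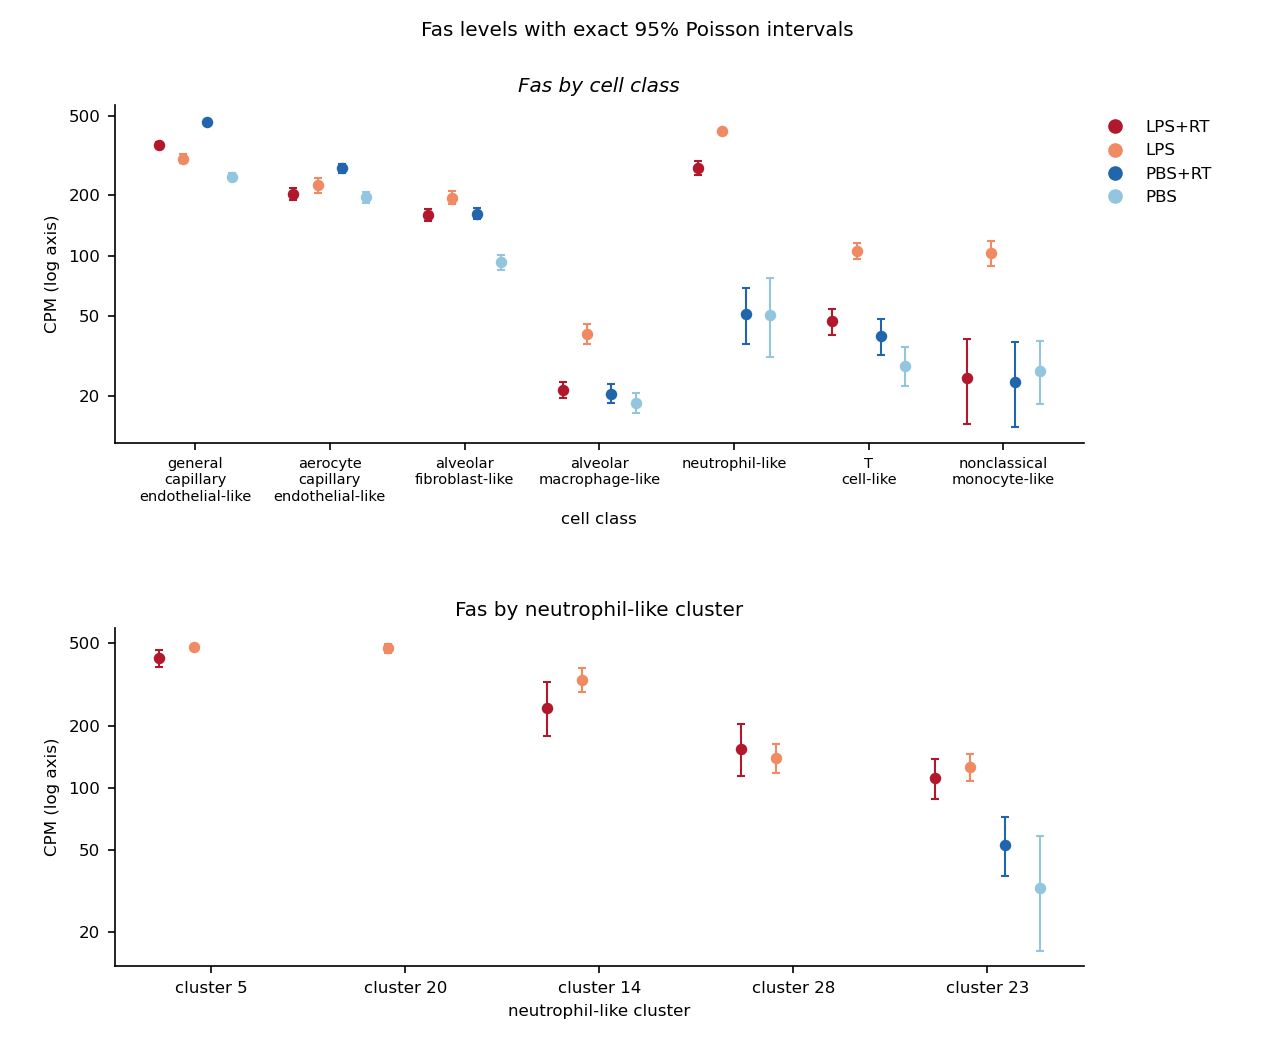
Fas levels in CPM on log axes with exact 95% Poisson intervals, by cell class in the upper panel and by neutrophil-like cluster in the lower panel, with a colour for each library and groups of too few cells left out. In neutrophil-like and T cell-like cells LPS (418 and 106) is the highest library, and in neutrophil-like clusters 5, 14, 23 and 28 the LPS+RT and LPS points lie close together.

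In neutrophil-like cells Fas separated LPS-treated from saline-treated lungs. It stood at 274 CPM in LPS+RT, 418 in LPS, 51.0 in PBS+RT and 50.6 in PBS. LPS over PBS was 8.25 (5.39 to 13.3), LPS+RT over PBS+RT 5.37 (3.90 to 7.59), PBS+RT over PBS 1.01 (0.580 to 1.80) and LPS+RT over LPS 0.656 (0.603 to 0.712). Most neutrophil-like cells of the saline libraries lay in cluster 23, led by Retnlg and Ngp, and most of those in LPS in clusters 5, 14, 20 and 28. Inside cluster 23 the levels were 112 CPM in LPS+RT, 126 in LPS, 52.7 in PBS+RT and 32.7 in PBS. Inside the 4 clusters with enough cells, the LPS+RT over LPS ratio lay between 0.732 and 1.11 and none was called, as the plot of Fas levels shows. The 3126 neutrophil-like cells of LPS, at 418 CPM, carried 49.0% of its Fas UMIs, against 7.78% in LPS+RT, 0.338% in PBS+RT and 0.387% in PBS. These shares follow the number of cells as well as the level. The cells counted are those left after the density gradient, so their number does not measure the neutrophils of the lung.

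T cell-like cells had 47.05 CPM of Fas in LPS+RT, 106 in LPS, 39.6 in PBS+RT and 28.2 in PBS. LPS was the highest library, at a ratio of 3.75 (2.95 to 4.81) over PBS, and LPS+RT over LPS was 0.445 (0.372 to 0.530). PBS+RT over PBS was 1.41 (1.03 to 1.92). Inside the 2 T cell-like subclusters of a second clustering that could be measured, LPS+RT over LPS was 0.324 and 0.390. This clustering of the lymphoid cells gave CD4 T-like cells 44.9 CPM in LPS+RT, 137 in LPS, 35.0 in PBS+RT and 27.0 in PBS. There LPS over PBS was 5.08 (3.58 to 7.36) and LPS+RT over LPS 0.328 (0.248 to 0.429). In CD8 T-like cells those ratios were 3.12 (2.02 to 5.04) and 0.481 (0.332 to 0.682). The libraries filled different subclusters, also among CD8 T-like cells. Subcluster 4, with the haemoglobin genes Hbb-bs and Hba-a1 among its leading genes, held 80 of the 236 CD4 T-like cells in LPS+RT, 9 of 185 in LPS, 1 of 123 in PBS+RT and 97 of 172 in PBS, and its part in these ratios was not tested.

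LPS was also the highest library for Fas in several myeloid classes. Alveolar macrophage-like cells had 21.5 CPM in LPS+RT, 40.8 in LPS, 20.5 in PBS+RT and 18.5 in PBS. The other 3 libraries lay close together, and LPS over PBS was 2.21 (1.87 to 2.61) and LPS+RT over LPS 0.527 (0.454 to 0.613). Nonclassical monocyte-like cells, which patrol vessel walls, had 24.5, 103, 23.6 and 26.6 CPM, a ratio of 3.88 (2.66 to 5.84) for LPS over PBS and of 0.238 (0.138 to 0.386) for LPS+RT over LPS. Most of this rested on cluster 53, which held 42 cells in LPS at 191 CPM and 4 in LPS+RT. Without it, inside cluster 24, the same ratios were 1.67 (1.05 to 2.70) and 0.556 (0.300 to 0.984). S100a8 in this class stood at 12.0% of its neutrophil-like level in LPS and 0.274% in LPS+RT, and its part in the Fas values was not tested. Alveolar type 2-like cells were the one class in which Fas was called higher in LPS+RT than in LPS, with 65.2 CPM in LPS+RT and 30.5 in LPS, a ratio of 2.14 (1.26 to 3.74).

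Fasl was a gene of natural killer-like cells in every library. It stood at 283 CPM in LPS+RT, 329 in LPS, 357 in PBS+RT and 300.1 in PBS. The libraries lay close together, with ratios of 1.19 (1.01 to 1.40) for PBS+RT over PBS, 0.860 (0.761 to 0.972) for LPS+RT over LPS, 1.10 (0.954 to 1.26) for LPS over PBS and 0.793 (0.688 to 0.916) for LPS+RT over PBS+RT. A Fasl UMI was found in 68.9%, 82.3%, 80.9% and 70.9% of natural killer-like cells, against 0.487%, 0.600%, 0.295% and 0.485% of general capillary endothelial-like cells, whose median depths were 2248, 2172, 7886.5 and 3093 UMIs. T cell-like cells had 38.7 CPM in LPS+RT, 51.4 in LPS, 39.2 in PBS+RT and 41.4 in PBS, and none of the 4 comparisons reached 1.5-fold there. In CD8 T-like cells LPS stood at 42.7 CPM and PBS at 71.0 CPM, a ratio of 0.602 (0.430 to 0.848). The 202 cells of LPS lay mostly in subclusters 7 and 8, with 74 and 95 cells, and the 88 cells of PBS mostly in subclusters 15 and 16, with 27 and 38 cells, subcluster 15 led by Gzmk. The part of this split in the ratio was not tested. Outside T cell-like and natural killer-like cells no named class of at least 50 cells passed 9.65 CPM, reached with 4 UMIs in neutrophil-like cells of PBS. Some Fasl UMIs fell outside named classes. Unnamed clusters held 7.22% of them in PBS, 5.97% in PBS+RT, 9.67% in LPS+RT and 21.7% in LPS, where their level was 38.1 CPM. Unnamed lymphoid subcluster 9, with Ifng and Xcl1 among its leading genes, had 96 cells from LPS and 6 from LPS+RT. Its part in the Fasl values was not tested. Of the cytotoxic effector genes Gzmb, Gzma, Prf1, Gzmk, Nkg7, Ifng, Tnfsf10 and Klrg1, 0 of 7 measured were called in natural killer-like cells for PBS+RT over PBS, where 21.6% of all genes were higher and 12.6% lower. For LPS+RT over LPS, 3 of 6 were lower and 0 higher, with 8.28% of all genes higher and 8.35% lower.

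Within libraries the order of classes was loose except at the top. For Fasl, natural killer-like cells stood apart from T cell-like cells, and T cell-like cells from the next class, in all 4 libraries. For Gdf15, alveolar macrophage-like cells stood apart from the next class in PBS+RT and PBS, aerocyte capillary endothelial-like cells did so in LPS+RT, and in LPS none of the 16 neighbours in the order had intervals that did not overlap. For Tnfrsf10b no neighbours stood apart in any library. For Eda2r no neighbours stood apart in LPS+RT or PBS.

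Other p53 targets were taken from a list of 24 genes without the 5 above. This list, like the other gene lists used here, was chosen with earlier results of these data known. Nothing is therefore read from its counts or medians against those of all genes. In general capillary endothelial-like cells 12 of 23 measured were higher and 1 lower in PBS+RT than in PBS, where 15% of all genes were higher and 17% lower. Their median log2 ratio was 0.60, against -0.01 for all genes. In LPS+RT over LPS, 14 of 21 were higher and 0 lower, with 8.49% and 9.15% of all genes, and medians of 0.77 for the list and -0.03 for all genes. In LPS over PBS, 1 of 21 was higher and 1 lower, with 9.35% and 12.7% of all genes. In LPS+RT over PBS+RT, 3 of 23 were higher and 0 lower, with 11.5% and 13.6% of all genes. Trp53cor1, a long noncoding RNA next to Cdkn1a, led with 29.1 CPM in PBS+RT against 4.25 in PBS (6.85, 4.97 to 9.68), and its ratio was 5.56 (3.38 to 9.74) for LPS+RT over LPS. Sesn2, which encodes a stress sensor that restrains mTORC1, was at 31.8 against 10.6 CPM in PBS lungs and 30.7 against 8.44 CPM in LPS lungs.

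Cdkn1a stood in these cells at 1376 CPM in LPS+RT, 530.3 in LPS, 1196 in PBS+RT and 784 in PBS, so that LPS was the lowest. PBS+RT over PBS was 1.53 (1.49 to 1.57) and LPS+RT over LPS 2.60 (2.48 to 2.71). Mdm2, whose product marks p53 for degradation, had 110.2, 75.3, 110.0 and 72.8 CPM, ratios of 1.51 (1.38 to 1.65) and 1.46 (1.29 to 1.66). Ccng1, a cyclin G gene, had ratios of 2.26 (1.93 to 2.66) and 1.70 (1.37 to 2.13), and Phlda3, an inhibitor of AKT signalling, of 1.73 (1.58 to 1.90) and 1.64 (1.47 to 1.84). In aerocyte capillary endothelial-like cells Mdm2 had a ratio of 1.77 (1.54 to 2.03) in PBS lungs and 1.02 (0.881 to 1.18) in LPS lungs. Not every listed target stood higher in general capillary cells. Bbc3, which encodes the pro-apoptotic protein PUMA, had a ratio of 0.785 (0.656 to 0.941) in PBS lungs, Cd80 0.534 (0.286 to 0.987) in PBS lungs and Plk2 0.719 (0.677 to 0.764) in LPS lungs. In alveolar macrophage-like cells 9 of 23 listed targets were higher and 1 lower in PBS+RT, where 8.15% of all genes were higher and 15.3% lower. In LPS+RT 7 of 23 were higher and 2 lower, with 8.09% of all genes higher and 14.3% lower.

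**Figure D5:**
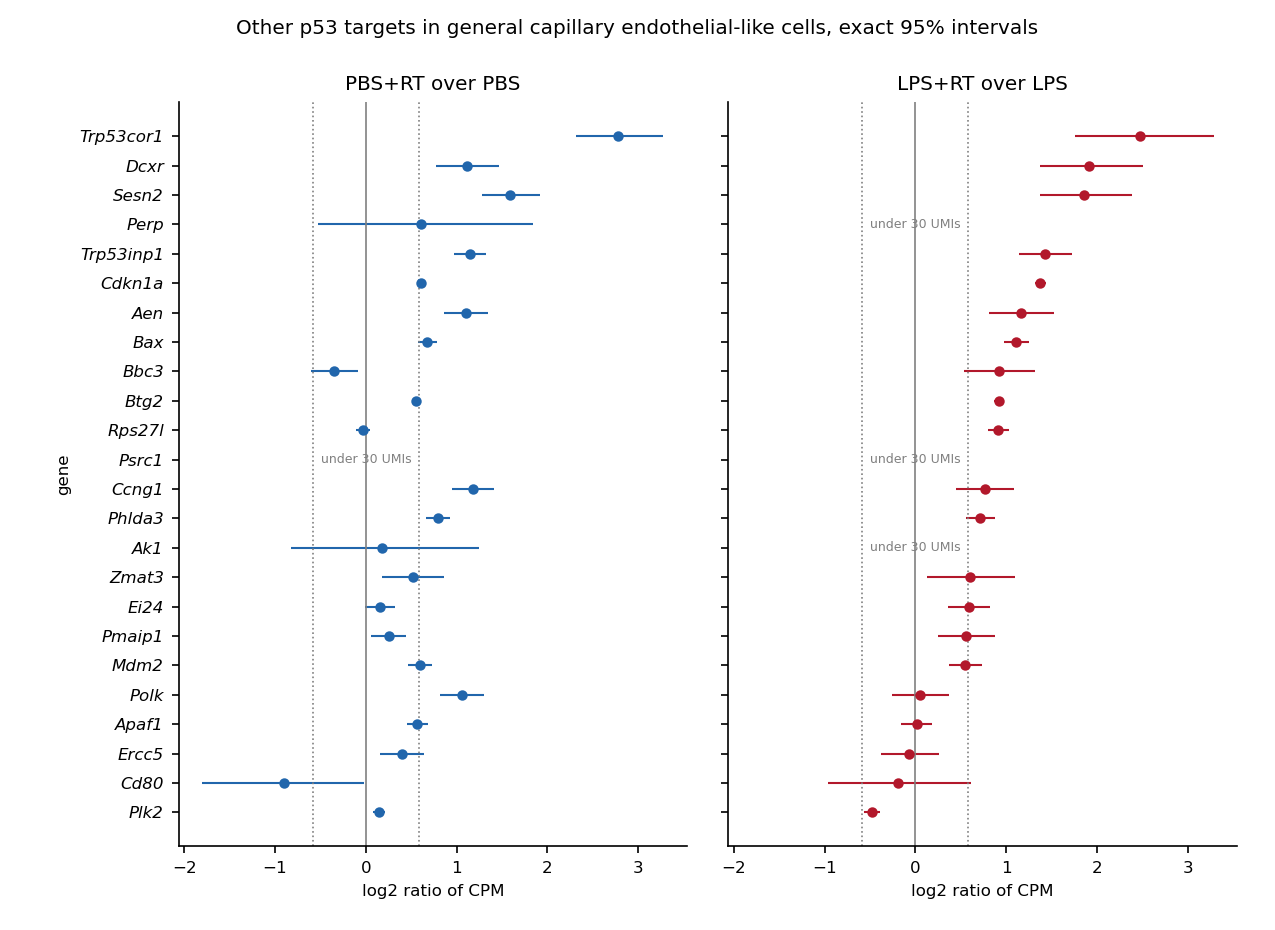
Log2 ratios of CPM for the 24 other p53 targets in general capillary endothelial-like cells, PBS+RT over PBS on the left and LPS+RT over LPS on the right, with exact 95% intervals for counting error and dotted lines at 1.5-fold. Most points lie right of 0 in both panels, and Trp53cor1 is the farthest right in each.

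Lists of receptor partner genes and of stress response genes were also counted in general capillary endothelial-like cells. There 15% of all genes were higher and 17% lower in PBS lungs, and 8.49% and 9.15% in LPS lungs. Of the death receptor signalling genes, 1 of 9 measured was higher and 2 lower in PBS+RT than in PBS. The higher one was Ripk1, which encodes a kinase of the receptor complex, at 403 against 167 CPM (2.41, 2.28 to 2.55), and Tradd, an adaptor gene, was at 8.90 against 17.4 CPM (0.511, 0.404 to 0.647). In LPS+RT over LPS, 0 of 9 were higher and 1 lower, and Ripk1 was at 210 against 186 CPM. Of the integrated stress response genes, 1 of 10 was higher and 1 lower in PBS lungs, and 2 of 10 higher and 1 lower in LPS lungs. Atf4 was at 322 CPM in LPS+RT against 192 CPM in LPS, a ratio of 1.68 (1.56 to 1.81). Sesn2 counts in this list as well as among the p53 targets. Of the ligands, decoys and partner receptors, 1 of 5 was higher and 1 lower in PBS lungs, and 1 of 6 higher and 2 lower in LPS lungs, among the lower Tnfsf10 at 218 against 405 CPM (0.537, 0.504 to 0.573).

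Detection of pairs of genes in the same thinned cells was low. In general capillary endothelial-like cells of LPS+RT, 36 of 49 cells with an Eda2r UMI also had a Cdkn1a UMI (73.5%), against 55.2% of the other cells. In PBS+RT it was 50 of 77 (64.9%) against 54.8%. For Eda2r with Fas in the same class the shares were 42.9% against 24.9% in LPS+RT and 31.2% against 30.9% in PBS+RT. For Eda2r with Gdf15 in aerocytes they were 0 of 16 against 9.40% in LPS+RT and 4 of 23 (17.4%) against 5.41% in PBS+RT. These shares come from cells of 1 library each and share its depth. The genes whose levels ran most like those of each gene over 56 class and library sums (14 classes, 8323 genes) were Zfp521 for Eda2r (Pearson r = 0.82), Mertk for Gdf15 (0.76), Tox2 for Tnfrsf10b (0.86), Ier3 for Fas (0.85) and Klrc1 for Fasl (0.94). With the mean of each class taken out, they were Dglucy for Eda2r (0.72), Cdkn1a for Gdf15 (0.68), Epb41l5 for Tnfrsf10b (0.62), Arid5b for Fas (0.84) and Dapl1 for Fasl (0.60). The sums share 4 libraries, and the values are descriptions.

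In mm10 coordinates Eda2r (ENSMUSG00000034457) lies on the minus strand of chromosome X from 97333840 to 97377216, Gdf15 (ENSMUSG00000038508) on the minus strand of chromosome 8 from 70629393 to 70632456, and Tnfrsf10b (ENSMUSG00000022074) on the plus strand of chromosome 14 from 69767472 to 69784411. Fas (ENSMUSG00000024778) lies on the plus strand of chromosome 19 from 34290666 to 34327772, and Fasl (ENSMUSG00000000817) on the minus strand of chromosome 1 from 161780689 to 161788495. Fas overlaps 159 bases of the RNA gene Gm27818 on the same strand, which is not counted in the tables.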

How the data were processed

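The authors deposited unnormalized UMI counts for every gene in every barcode, and per the file headers these were written by Cell Ranger 7.0.1. The submitters' processing notes list mm10, Seurat 4.3.0, R 4.2.2 and Cell Ranger 7. Whether introns were counted is not given in the sources used here, and barcode sequences were not used here, so barcodes shared between libraries were not counted. The libraries held 78669568 UMIs in 10996 barcodes (LPS+RT), 80013887 in 9572 (LPS), 69119644 in 6708 (PBS+RT) and 65995600 in 10083 (PBS).

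The 5 genes and the gene lists were chosen with earlier results of these data known. Cells had to hold at least 500 UMIs from 200 or more genes, with a mitochondrial share of at most 10%. Doublets were removed with a reimplementation of Scrublet (30 components, expected rate 8%): 2.13% in LPS+RT, 1.36% in LPS, 1.40% in PBS+RT and 1.33% in PBS. Of simulated doublets only 18.5%, 14.2%, 19.7% and 12.4% were called, so most may remain. Cells were clustered without the 5 genes and the listed genes (2000 variable genes, 30 components, 15 neighbours, Leiden resolution 1.5; leidenalg 0.10.2, python-igraph 0.11.9), giving 57 clusters, 6 of them unnamed. To be named, a cluster had to show 3 or more markers of a class, each in 10% or more of its cells and 2-fold above the other clusters, thresholds set after the clusters had been seen. Names are rebuilt and are not the submitters' annotation. Lymphoid cells were clustered again (25 subclusters). UMIs were summed per class and library. Levels have exact Poisson intervals, shares of cells exact Clopper-Pearson intervals and ratios exact conditional binomial intervals (scipy 1.17.1 under Python 3.11.15, with pandas 2.3.3 and numpy 2.4.6). With 1 library per group no test was made. In each list of at least 5 measured genes, those with the highest and lowest log2 ratios were named, and Cdkn1a, Mdm2, Ccng1 and Phlda3 always; from these the text gives a selection, with S100a8 added to follow neutrophil RNA. Cluster splits and co-detection were chosen after the values had been seen. Gene positions are from the GENCODE annotation of mm10 and promoters from RefSeq. 12 alternatives were run.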

Additional observations from a re-analysis of the deposited data

Results flagged for a closer look

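In 8 pairs of ratios a gene lay on opposite sides of 1 in the same class under the same treatment, with intervals that excluded 1 on each side. Each pair compares single libraries, and none of these differences was tested. Under irradiation, the log2 ratio of Fas in T cell-like cells was -1.17 in LPS lungs and 0.49 in PBS lungs. In alveolar fibroblast-like cells Fas was at -0.28 in LPS lungs and 0.80 in PBS lungs, and in classical monocyte-like cells at -0.59 and 0.79. Fasl in natural killer-like cells was at -0.22 in LPS lungs and 0.25 in PBS lungs.

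Under LPS, the log2 ratio of Gdf15 in general capillary endothelial-like cells was 0.42 in irradiated lungs and -1.68 in unirradiated lungs, the last from 7 UMIs in LPS and 48 in PBS. With each cell named by its own marker score the unirradiated value was 0.95, which leaves no opposite signs. Fas in the same cells was at -0.38 in irradiated lungs and 0.30 in unirradiated lungs, in aerocyte capillary endothelial-like cells at -0.43 and 0.20, and in pericyte or smooth muscle-like cells at -0.76 and 0.71. The pericyte values changed sign with each cell weighted equally. Inside single clusters of general and of aerocyte capillary cells, the unirradiated Fas values were positive in some and negative in others. The irradiated values were negative in every measured cluster of both classes. S100a8 was most visible in both classes in the LPS library, and its part in these Fas values was not tested.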

How the results depend on the processing

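No paired analysis was possible because each group has 1 library. Of 1023 recomputed values, 908 kept their direction and size, 107 moved and 8 changed sign. The settings were not alike. With each cell thinned to 1000 UMIs, which evens out depth, 32 values moved, 23 stayed the same and 0 changed sign. The cause was not tested. The count of pairs higher in PBS+RT than in PBS (22) was 37 with no filter on low counts, 14 with at least 100 UMIs, 13 at 2-fold and 10 after thinning, and the count lower (0) was 1 with each cell weighted equally, 1 by own marker score and 3 with no filter. For LPS+RT over LPS, the count higher (12) was 19 by own marker score, 24 with no filter and 5 after thinning, and the count lower (7) was 16, 11 and 1 under these settings and 2 at 2-fold. For LPS over PBS, the count higher (12) was 30 by own marker score, 21 with no filter and 2 after thinning, and the count lower (4) was 7 with equal weights, 9 with no filter, 2 with at least 100 UMIs and 1 after thinning. For LPS+RT over PBS+RT, the count higher (4) was 13 by own marker score, 9 with no filter, 1 with at least 100 UMIs and 2 after thinning, and the count lower (13) was 23 with no filter, 8 with at least 100 UMIs, 5 at 2-fold and 5 after thinning. Thinning leaves fewer pairs measured, 13, 15, 11 and 16 in these comparisons. The log2 ratios that changed sign were, by own marker score, Fas in alveolar type 2-like cells (LPS over PBS, 0.59), Gdf15 in general capillary endothelial-like cells (LPS over PBS, 0.95) and Gdf15 in pericyte or smooth muscle-like cells (LPS+RT over PBS+RT, 1.64). With equal weights they were Fas in pericyte or smooth muscle-like cells (LPS over PBS, -0.12; LPS+RT over PBS+RT, 0.013) and Tnfrsf10b in alveolar fibroblast-like cells (LPS+RT over PBS+RT, 0.029), and with the mix of clusters held equal Gdf15 in neutrophil-like cells (LPS over PBS, -0.72; LPS+RT over PBS+RT, -0.91). The median of all genes in a class ranged from -0.21 to 0.24, and recentring on it moved 2 values.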
